A study of Mus musculus with 6 samples.

Results

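A set of feedback genes of MAP kinase signalling, most of them inhibitors, was followed in BV2. BV2 is a mouse cell line immortalised from microglia, which are the macrophages of brain tissue. The set was 10 genes chosen by symbol. The inhibitors were the MAP kinase phosphatases Dusp1, Dusp2, Dusp4, Dusp5 and Dusp6, the Sprouty genes Spry1, Spry2 and Spry4, and the Sprouty-related Spred1. The last gene was the early response gene Ier3. Each symbol matched a single row, giving 10 of the 25032 genes with a read in some library. Poly(A) RNA was sequenced in 6 libraries. In 3 of them the cells overexpressed TDP43-NLS, a form of the RNA-binding protein TDP-43 described as mutated in its nuclear localisation signal, and in the other 3 they overexpressed GFP, the control protein. The labels give no promoter, vector, clone, time point or species of the construct, and they do not say whether libraries came from separate cultures. Every p-value therefore measures the spread between these libraries, which may be technical.

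MAP kinase cascades carry signals from receptors at the membrane through Ras, Raf and MEK to the kinase ERK, and through parallel arms to the stress kinases JNK and p38. DUSPs switch these kinases off by removing phosphate from both the threonine and the tyrosine of the activation loop, while Sprouty and Spred proteins act upstream, between the receptor, Ras and Raf. Many of these inhibitors are themselves transcribed in response to the kinases they restrain. In macrophages Dusp1 is known for limiting p38 and JNK after Toll-like receptor stimulation, and so the output of inflammatory cytokines.

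Library totals ran from 15062131 to 18005592 counted reads. GFP replicate 2 stood apart from the other GFP libraries: a chi-square over genes, divided by its degrees of freedom, was 7.24 and 7.27 for its pairs, against 1.20 for GFP replicates 1 and 3, and all 10 feedback genes kept their call without it. Tardbp, the mouse gene for TDP-43, averaged 376 ± 9.61 CPM (counts scaled by TMM to library size) in the libraries labelled TDP43-NLS and 451 ± 23.9 CPM in those labelled GFP (SD, n = 3 each). Its log2 fold change was -0.26 (standard error 0.05, edgeR adjusted p = 0.000269). The construct has no row of its own, so its expression could not be measured separately. Whether any of its reads were counted for Tardbp is not known, as its species is not given. Every direction below rests on the labels. Of 12 microglia and macrophage markers 12 were tested, and their summed level was 2940 to 3000 CPM in the libraries labelled TDP43-NLS and 2960 to 3010 CPM in those labelled GFP. Neuron markers summed to 1.27 to 1.68 CPM in the libraries labelled TDP43-NLS and 0.355 to 0.683 CPM in those labelled GFP. Astrocyte markers summed to 0.876 to 0.954 CPM in the libraries labelled TDP43-NLS and 0.532 to 1.35 CPM in those labelled GFP. Rbfox3, Snap25, Syt1 and Gad1 (neurons), Aqp4 (astrocytes), Mog (oligodendrocytes) and Dcn (fibroblasts) had no read. Oligodendrocyte lineage markers summed to 5.28 to 7.14 CPM in the libraries labelled TDP43-NLS and 3.82 to 6.15 CPM in those labelled GFP, and fibroblast and endothelial markers to 1.75 to 2.02 CPM and, labelled GFP, 0.569 to 0.827 CPM. Their part in the results was not tested.

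All 10 feedback genes were higher in the libraries labelled TDP43-NLS, from a 7.31-fold rise of Ier3 to a 1.12-fold rise of Spred1. Each was called at an adjusted p under 0.05 by the quasi-likelihood test of edgeR, which called 57.6% of all 13199 tested genes, 29.3% as higher and 28.3% as lower. None of the 10 had a negative fold change, so 0 fell, also at an unadjusted p under 0.05 and in DESeq2 and limma. The median log2 fold change was 1.02 for the 10 genes and 0.003 for all tested genes. The 10 were chosen with earlier results of these data known, so such counts describe these genes only. Because small changes were so often called here, a stricter question was also asked: 8 of the 10 rose by more than 0.5 on the log2 scale (edgeR's glmTreat, adjusted p under 0.05), against 9.29% of all tested genes that rose and 5.67% that fell by that much. For a change of more than 1 it was 5 of the 10, against 4.02% of tested genes higher and 1.77% lower (5.79% in all). In bulk RNA a larger share of cells with a transcript and more transcript per cell cannot be told apart.

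**Figure D1:**
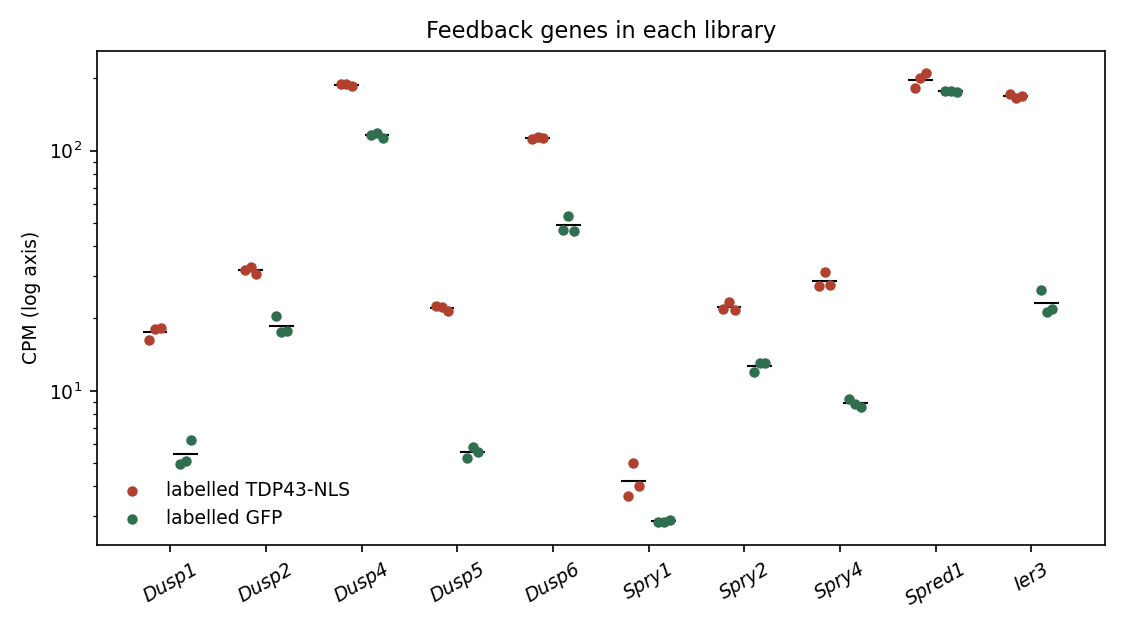
CPM (counts after TMM scaling, log axis) of the 10 feedback genes; each point is a library, and the black lines are means of 3 libraries. The libraries labelled TDP43-NLS lie above those labelled GFP for every gene shown, widely for Ier3 (means of 169 CPM labelled TDP43-NLS and 23.1 CPM labelled GFP) and narrowly for Spred1 (197 CPM labelled TDP43-NLS and 177 CPM labelled GFP).

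Promoters are shown for the 3 genes whose 300-base window held a match to a regulatory motif other than the GC box, since these windows differ in which motif they carry. The windows, from RefSeq on GRCm38.p6, span the transcript start, and 8 of the 10 genes matched an entry, all but Dusp4 and Spry4. Capitals mark the motif. For Ier3 (chr17:35821463-35821762, plus strand) it is the kB motif, the element bound by NF-kB, on the minus strand. For Dusp5 (chr19:53528895-53529194, plus strand) it is a pair of adjacent CArG boxes, the element bound by serum response factor. For Dusp1 (chr17:26508423-26508722, minus strand) it is the cAMP response element TGACGTCA.
Ier3 promoter: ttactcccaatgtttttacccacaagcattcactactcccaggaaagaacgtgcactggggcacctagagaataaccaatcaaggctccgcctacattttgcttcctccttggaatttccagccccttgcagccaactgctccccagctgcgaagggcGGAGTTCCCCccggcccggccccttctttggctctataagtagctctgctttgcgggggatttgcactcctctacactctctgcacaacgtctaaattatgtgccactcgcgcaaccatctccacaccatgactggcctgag
Dusp5 promoter: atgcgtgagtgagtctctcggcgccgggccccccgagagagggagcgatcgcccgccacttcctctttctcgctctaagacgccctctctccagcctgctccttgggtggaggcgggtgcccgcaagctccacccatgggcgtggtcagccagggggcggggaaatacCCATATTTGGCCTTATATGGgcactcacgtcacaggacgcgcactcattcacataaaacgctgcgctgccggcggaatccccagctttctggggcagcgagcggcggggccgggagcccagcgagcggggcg
Dusp1 promoter: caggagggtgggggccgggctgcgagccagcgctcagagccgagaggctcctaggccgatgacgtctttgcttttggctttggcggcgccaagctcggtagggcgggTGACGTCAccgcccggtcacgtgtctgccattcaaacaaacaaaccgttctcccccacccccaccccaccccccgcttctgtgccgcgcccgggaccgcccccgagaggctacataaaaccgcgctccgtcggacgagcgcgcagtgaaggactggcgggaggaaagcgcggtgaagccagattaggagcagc

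In Ier3 the kB match lies at -92 to -83 from the start and overlaps a GC box (GGGCGG) at -96 to -91. In Dusp5 the CArG boxes lie at -82 to -73 and -72 to -63, and in Dusp1 the cAMP response element lies at -143 to -136. Both strands were searched in all 32851 RefSeq windows of this length. The kB motif was found in 8.46% of them, the CArG box in 1.63% and the cAMP response element in 1.79%. Each was found in 1 of the 8 feedback gene windows. The GC box was found in 6 of the 8, against 35.7% of all windows. AP-1 (TGANTCA), EGR (GCGTGGGCG) and ETS (ACCGGAAG) motifs were found in 0 of the 8, against 7.81%, 0.612% and 2.30% of all windows. These are matches of letters and say nothing of binding in these cells.

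Ier3 (ENSMUSG00000003541, GRCm39 chromosome 17, 36132576 to 36133815, plus strand) encodes a short-lived early response protein known, in human cells, to bind ERK and to affect survival. It had 2559, 2939 and 2936 reads in the libraries labelled TDP43-NLS, against 408, 361 and 383 in those labelled GFP. The groups are far apart, and within each the libraries lie close together. In CPM the level was 169 ± 3.72 in the libraries labelled TDP43-NLS and 23.1 ± 2.71 in those labelled GFP (SD, n = 3 each). The log2 fold change was 2.87 (standard error 0.07, edgeR adjusted p = 1.91e-12). In 1.02% of tested genes the log2 fold change was higher.

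The nuclear phosphatases Dusp1, Dusp2, Dusp4 and Dusp5 all rose, by amounts that differed widely. Dusp5, which acts on ERK in the nucleus, had 22.6, 22.3 and 21.5 CPM in the libraries labelled TDP43-NLS, against 5.27, 5.85 and 5.58 CPM in those labelled GFP. That is a 3.97-fold rise (log2 fold change 1.99, standard error 0.08, edgeR adjusted p = 5.16e-10), with a spread of at most 0.614 CPM (SD) in either group. Dusp1, which prefers p38 and JNK, had 16.3, 18.1 and 18.2 CPM in the libraries labelled TDP43-NLS and 4.95, 5.08 and 6.26 CPM in those labelled GFP. Here GFP replicate 3 was the highest of its group and still far below every library labelled TDP43-NLS. The log2 fold change was 1.69 (standard error 0.10, edgeR adjusted p = 1.96e-08), the least precise of the 4 nuclear phosphatases. The annotated span of Dusp1 (chromosome 17, 26724564 to 26781102, minus strand) overlaps the start of Ergic1 on the plus strand from 26780463 to 26781102. Ergic1 had a log2 fold change of 0.06, and the strand setting of the counting was not stated in the sources used.

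Dusp4 and Dusp2 had more reads in both groups and rose less. Dusp4 (chromosome 8, 35274451 to 35287048, plus strand), an inducible phosphatase of the nucleus, had 189, 190 and 185 CPM in the libraries labelled TDP43-NLS and 116, 118 and 113 CPM in those labelled GFP. Both groups were tight, so that a 1.63-fold rise was well resolved (log2 fold change 0.70, standard error 0.04, edgeR adjusted p = 9.11e-09). Dusp2, a phosphatase known from activated leukocytes, had 31.7, 32.9 and 30.7 CPM in the libraries labelled TDP43-NLS and 20.4, 17.5 and 17.7 CPM in those labelled GFP. GFP replicate 1 was the highest of its group and came closest to the other group. The log2 fold change was 0.78 (standard error 0.07, edgeR adjusted p = 9.41e-07). Neither Dusp2 nor Dusp4 passed the test against a log2 fold change of 1, whereas Dusp1 and Dusp5 did (adjusted p = 6.77e-05 and 2.44e-07).

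Dusp6 (chromosome 10, 99099093 to 99103351, plus strand), the cytoplasmic phosphatase selective for ERK, had 112, 114 and 113 CPM in the libraries labelled TDP43-NLS and 46.9, 53.2 and 46.4 CPM in those labelled GFP. The SD was 1.13 CPM in the libraries labelled TDP43-NLS and 3.8 CPM in those labelled GFP, where replicate 2 was the highest. Dusp6 rose 2.32-fold (log2 fold change 1.21, standard error 0.06, edgeR adjusted p = 1.06e-09). It also passed the test against a log2 fold change of 1 (adjusted p = 0.00432).

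**Figure D2:**
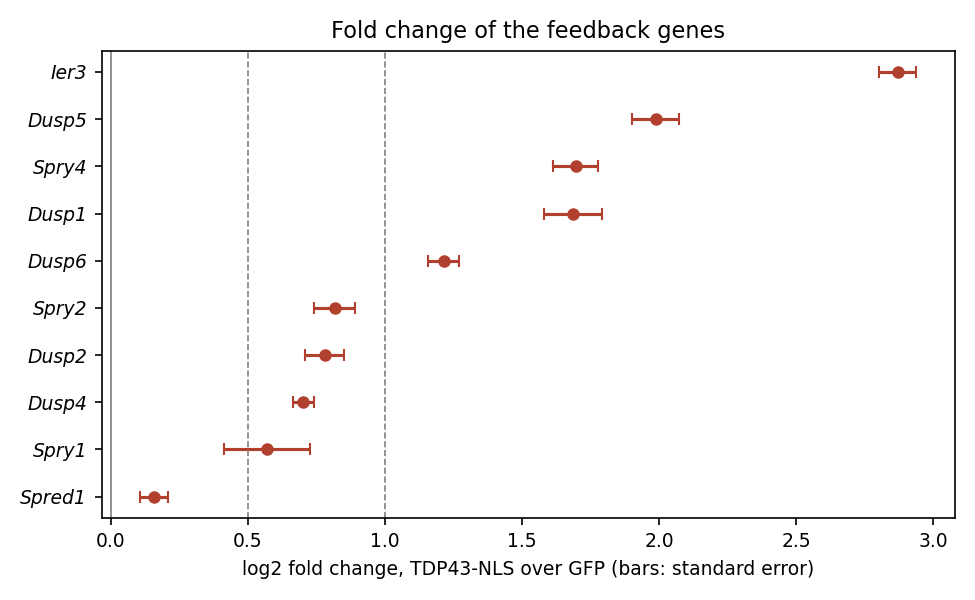
Log2 fold change, TDP43-NLS over GFP, of each feedback gene from edgeR's fit, with its standard error as a bar; dashed lines stand at 0.5 and 1. Ier3, Dusp5, Spry4, Dusp1 and Dusp6 lie beyond 1, and Spred1 at 0.16 lies nearest to 0.

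All 3 Sprouty genes rose, Spry4 by more than Spry2 and Spry1. Spry4 (chromosome 18, 38719300 to 38734468, minus strand), an inhibitor of Ras-ERK signalling downstream of receptor tyrosine kinases, had 27.4, 31.2 and 27.7 CPM in the libraries labelled TDP43-NLS and 9.26, 8.81 and 8.60 CPM in those labelled GFP. All 3 libraries of the first group held about the same level, with replicate 2 the highest. The rise was 3.24-fold (log2 fold change 1.70, standard error 0.08, edgeR adjusted p = 1.72e-09). Spry2, which also restrains receptor signalling and binds the ubiquitin ligase Cbl, had 326, 417 and 378 reads in the libraries labelled TDP43-NLS and 187, 221 and 228 reads in those labelled GFP. In CPM this was 22.4 ± 0.903 labelled TDP43-NLS and 12.7 ± 0.576 labelled GFP (SD, n = 3 each), with no overlap, and the log2 fold change was 0.82 (standard error 0.07, edgeR adjusted p = 7.38e-07).

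Spry1, a close relative of Spry2, was read least of the 10, so its value is the least certain. It had 54, 89 and 70 reads in the libraries labelled TDP43-NLS and 44, 48 and 51 in those labelled GFP. In CPM the groups did not overlap, at 3.64, 5.00 and 4.03 labelled TDP43-NLS against 2.83, 2.84 and 2.90 labelled GFP, but TDP43-NLS replicate 2 stood above the rest. The log2 fold change of 0.57 (standard error 0.16, edgeR adjusted p = 0.00707) was 0.43 without that library (adjusted p = 0.0442). The start of Spry1 (chromosome 3, 37694096 to 37698747, plus strand) overlaps Gm42922 on the minus strand, a row with 35 reads over the libraries labelled TDP43-NLS and 9 over those labelled GFP. Reads of the pair cannot be told apart if counting ignored strand.

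Spred1, which brings the Ras inhibitor neurofibromin to the membrane, rose least. It had 182, 200 and 210 CPM in the libraries labelled TDP43-NLS and 177, 177 and 176 CPM in those labelled GFP. One group was nearly constant and the other spread over 14.0 CPM (SD), with replicate 1 close to the GFP level. The log2 fold change was 0.16 (standard error 0.05, edgeR adjusted p = 0.0167), and 34.5% of all tested genes had a higher signed log2 fold change. In CPM all 10 genes had groups that did not overlap with TDP43-NLS higher, as had 32.0% of tested genes (31.2% with TDP43-NLS lower, 63.2% in all). In FPKM, which uses the plain library total, Spred1 overlapped (26.4, 29.2 and 30.5 labelled TDP43-NLS against 26.5, 26.5 and 26.2 labelled GFP) and 9 genes did not. The call was lost without TDP43-NLS replicate 2 (adjusted p = 0.0542), TDP43-NLS replicate 3 (adjusted p = 0.0716) or GFP replicate 3 (adjusted p = 0.0519), in the same edgeR test.

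Levels were compared between genes in FPKM, the authors' measure per gene length and library total. In the libraries labelled TDP43-NLS the order was Ier3 at 147 ± 2.95 FPKM, Dusp4 at 67.8 ± 1.01, Dusp6 at 35.7 ± 0.428, Spred1 at 28.7 ± 2.07 and Dusp2 at 15.7 ± 0.571 (SD, n = 3). Below these stood Spry2 at 10.6 ± 0.446 FPKM, Dusp5 at 8.84 ± 0.243, Spry4 at 5.97 ± 0.445, Dusp1 at 5.22 ± 0.322 and Spry1 at 1.43 ± 0.241. No neighbours in that order overlapped between libraries. In the libraries labelled GFP Dusp4 led at 42.7 ± 0.838 FPKM, followed by Spred1 at 26.4 ± 0.152, Ier3 at 20.7 ± 2.41, Dusp6 at 15.8 ± 1.26 and Dusp2 at 9.37 ± 0.809. Spry2 stood at 6.16 ± 0.284 FPKM there, Dusp5 at 2.28 ± 0.122, Spry4 at 1.89 ± 0.0724, Dusp1 at 1.66 ± 0.219 and Spry1 at 0.996 ± 0.0131. Spry4 and Dusp1 were the only neighbours whose libraries overlapped. Between the groups Ier3 and Spred1 changed place most: Ier3 was first in the libraries labelled TDP43-NLS and the third in those labelled GFP, and the order of the 6 lowest genes was the same in both.

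In each family the most abundant member held a smaller share in the libraries labelled TDP43-NLS. The 5 DUSPs summed to 133 ± 1.91 FPKM in the libraries labelled TDP43-NLS and 71.8 ± 1.82 in those labelled GFP (SD, n = 3 each). Dusp4 held 50.9% ± 0.339 of that sum labelled TDP43-NLS and 59.5% ± 0.346 labelled GFP, whereas Dusp6 held 26.8% ± 0.343 labelled TDP43-NLS and 22.0% ± 1.26 labelled GFP. Dusp5 held 6.64% ± 0.140 labelled TDP43-NLS and 3.18% ± 0.147 labelled GFP, and Dusp1 3.92% ± 0.243 labelled TDP43-NLS and 2.32% ± 0.358 labelled GFP. The 4 Sprouty and Spred genes summed to 46.7 ± 2.59 FPKM labelled TDP43-NLS and 35.5 ± 0.251 FPKM labelled GFP. Spred1 held 61.5% ± 1.93 of it in the libraries labelled TDP43-NLS and 74.5% ± 0.512 in those labelled GFP, Spry2 22.7% ± 1.14 labelled TDP43-NLS and 17.4% ± 0.717 labelled GFP, and Spry4 12.8% ± 0.713 labelled TDP43-NLS and 5.34% ± 0.221 labelled GFP. An exact two-sided permutation test of each share gave p = 0.1 for these 7 shares, the smallest that 3 libraries against 3 allow. For Dusp2 the shares were 11.8% ± 0.261 labelled TDP43-NLS and 13.1% ± 1.18 labelled GFP (exact p = 0.1), and for Spry1 3.06% ± 0.387 labelled TDP43-NLS and 2.81% ± 0.0438 labelled GFP (exact p = 0.3). With 9 shares tested, none passes 0.05 in this design. When shares were taken of summed CPM, which does not divide by gene length, the difference for Spry2 was 2.57 percentage points, against 5.33 in FPKM. Shares within a family sum to 100%, so they do not move independently.

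**Figure D3:**
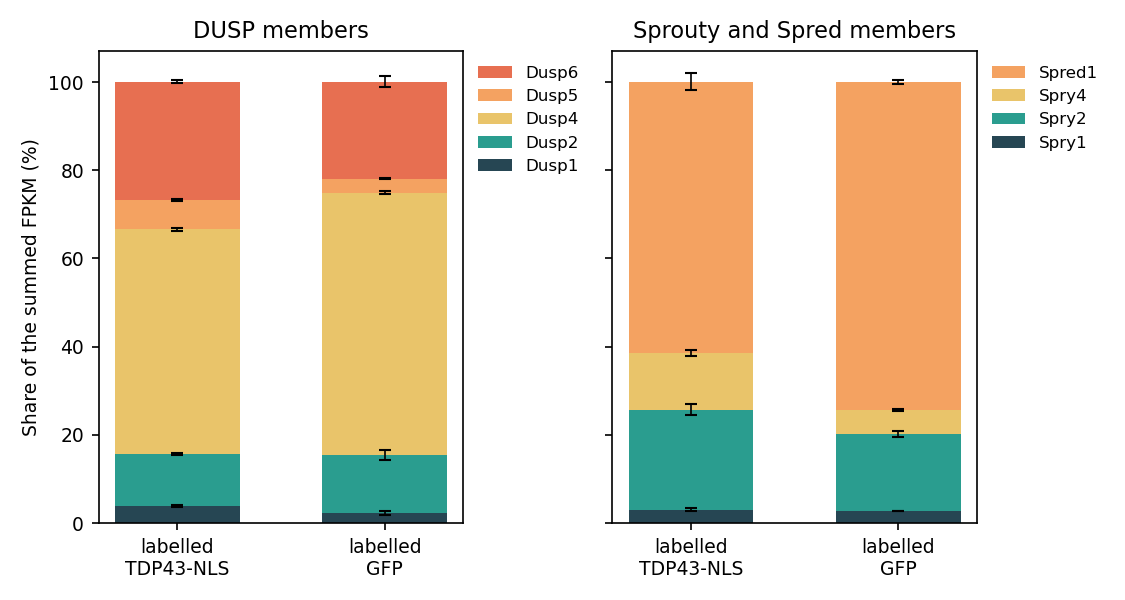
Share of each gene in the summed FPKM of its family, as the mean of 3 libraries with the SD as error bar at the top of each segment. Dusp4 takes 50.9% in the libraries labelled TDP43-NLS and 59.5% in those labelled GFP, and Spred1 61.5% labelled TDP43-NLS and 74.5% labelled GFP.

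Among 14 tested other MAP kinase phosphatases and atypical DUSPs, 5 rose and 6 fell, with a median log2 fold change of -0.14, beside 29.3% higher and 28.3% lower and a median of 0.003 over all tested genes. Among those that rose were Ptpn5, a tyrosine phosphatase that acts on ERK and p38, by 3.20 (3.20 ± 0.476 CPM labelled TDP43-NLS and 0.337 ± 0.0723 CPM labelled GFP), Dusp10, which acts on JNK and p38, by 2.17, Dusp14 by 1.91 and Dusp16, a JNK phosphatase, by 0.76 on the log2 scale. All 5 that rose also passed the test against a log2 fold change of 0.5. That is 5 of the 14 tested, and 0 fell by that much, where 9.29% of all tested genes rose and 5.67% fell. Dusp7, the cytoplasmic ERK phosphatase most like Dusp6, was looked at after its values were seen. It had 114 ± 4.05 CPM in the libraries labelled TDP43-NLS and 149 ± 11.1 CPM in those labelled GFP (log2 fold change -0.39, edgeR adjusted p = 4.27e-05). It lies on chromosome 9, where the 712 tested genes had a median log2 fold change of -0.31.

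Of 13 tested genes of the list of other Sprouty, Spred and receptor-level feedback genes, 7 rose and 3 fell. Their median log2 fold change was 0.19, beside the same 29.3% higher and 28.3% lower over all tested genes. By more than 0.5, 5 of the 13 rose and 0 fell, where 9.29% of all tested genes rose and 5.67% fell. Spred3, a Sprouty-related inhibitor of Ras-ERK signalling, rose by 1.96 on the log2 scale, to 19.8 ± 2.05 CPM in the libraries labelled TDP43-NLS against 5.09 ± 0.562 CPM in those labelled GFP. Trib1, a pseudokinase adaptor of protein degradation, rose by 1.10, Errfi1, a feedback inhibitor of the EGF receptor, by 0.78, and Dok2, an adaptor that restrains Ras, by 0.73. Spred2, the nearest relative of Spred1 and chosen after its values were seen, rose by 0.19, close to the 0.16 of Spred1.

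Of 27 tested Ras-ERK cascade genes 14 rose and 7 fell, with a median log2 fold change of 0.14, where 29.3% of all tested genes rose and 28.3% fell. By more than 0.5, 5 rose and 1 fell, where 9.29% of all tested genes rose and 5.67% fell. Rps6ka2, an RSK kinase downstream of ERK, rose by 2.48 (121 ± 7.69 CPM labelled TDP43-NLS and 21.7 ± 0.923 CPM labelled GFP), the scaffold Ksr1 by 1.72, Mapk3, which encodes ERK1, by 0.73 and the Ras activator Sos2 by 0.66. The JNK and p38 list had 8 higher and 7 lower of 21 tested, with a median of 0.08, beside 29.3% higher and 28.3% lower of all tested genes. By more than 0.5, 2 of this list rose and 1 fell, where 9.29% of all tested genes rose and 5.67% fell. Map3k8, the kinase that links Toll-like receptors to ERK, rose by 1.29 and Mapk9, which encodes JNK2, by 0.58. Gadd45g, a stress-induced activator of the p38 arm, fell by 1.77 and Mapkapk2, a kinase downstream of p38, by 0.49.

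The next list, called ERK-responsive, gathered genes linked to transcription downstream of ERK, including the Elk and Srf transcription factors. Whether each transcript follows ERK activity was not tested. Of 22 tested members of the ERK-responsive list 15 rose and 4 fell, with a median log2 fold change of 0.55, beside 29.3% higher and 28.3% lower over all tested genes. By more than 0.5, 8 rose and 1 fell, beside 9.29% and 5.67% of all tested genes. Fosl1, an AP-1 subunit, rose by 2.16, the ETS factor Etv4 by 1.84, Plaur, the urokinase receptor, by 1.31 and Elk3, another ETS factor, by 0.98. Etv4 had 51.7 ± 0.320 CPM in the libraries labelled TDP43-NLS and 14.4 ± 1.04 CPM in those labelled GFP (SD, n = 3 each). Other members of this list went the other way or were nearly absent, and were chosen after their values were seen. Egr3 fell by 1.12 and Egr2 by 0.95 on the log2 scale. Egr2 had 60 reads over the libraries labelled TDP43-NLS and 116 over those labelled GFP. Its groups overlapped in CPM (edgeR adjusted p = 0.0201), while those of Egr3 did not (2.23e-05 in the same test). Egr1, the best known immediate early target of ERK, had 1 read in the libraries labelled TDP43-NLS and 2 in those labelled GFP. Etv5, often induced with Etv4, fell by 0.22. It lies on chromosome 16, where the 399 tested genes had a median log2 fold change of -0.21. Kinase activity itself was not measured.

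**Figure D4:**
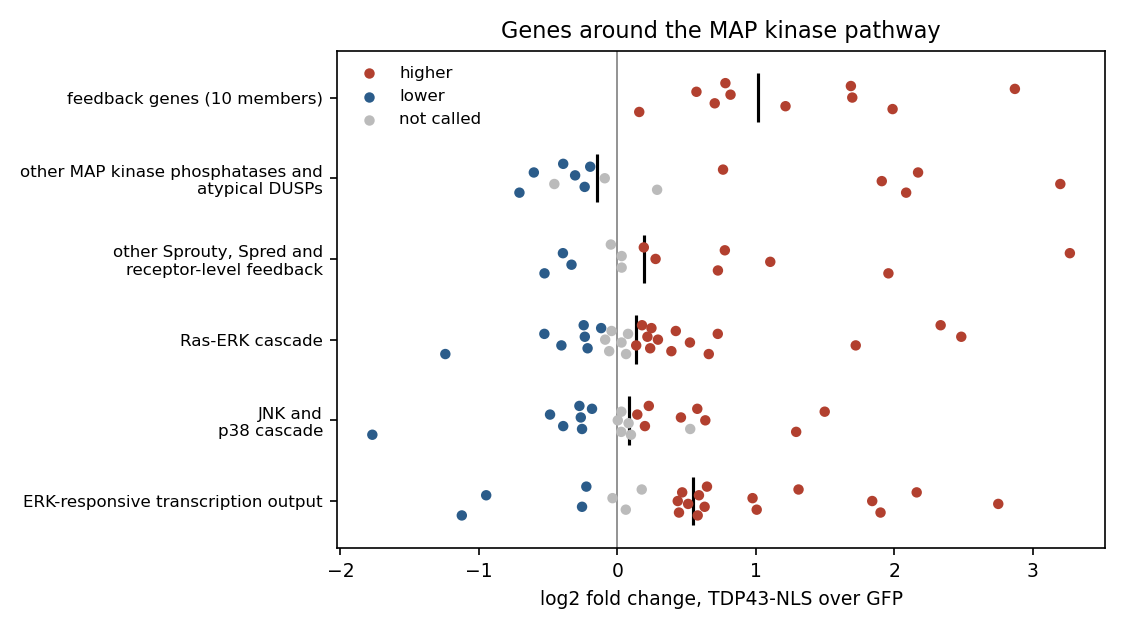
Log2 fold change, TDP43-NLS over GFP, of every tested gene in each list; red genes rose, blue genes fell, grey genes were not called by edgeR, and the black line is the median of the list. The medians are 1.02 for the 10 feedback genes, -0.14 for the other phosphatases, 0.14 for the Ras-ERK cascade and 0.55 for the ERK-responsive list.

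Because genes of some chromosomes shifted together in these libraries, each feedback gene was set beside the tested genes whose start lies within 2 Mb. The neighbours' median log2 fold change lay between -0.06 (47 genes around Dusp2) and 0.36 (24 genes around Dusp4). For Ier3, 2 of 110 neighbours had a larger log2 fold change. Around Dusp5 it was 1 of 16, around Dusp1 1 of 98 and around Spry4 2 of 32, and around Dusp6 and Spry2 it was 0 of 7 and 0 of 6. Spry1 and Spred1 stood less apart, with 5 of 21 and 12 of 26 neighbours higher, and Dusp4 had 4 of 24. Within 1 Mb the median around Spred1 was 0.62, over 4 genes.

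**Figure D5:**
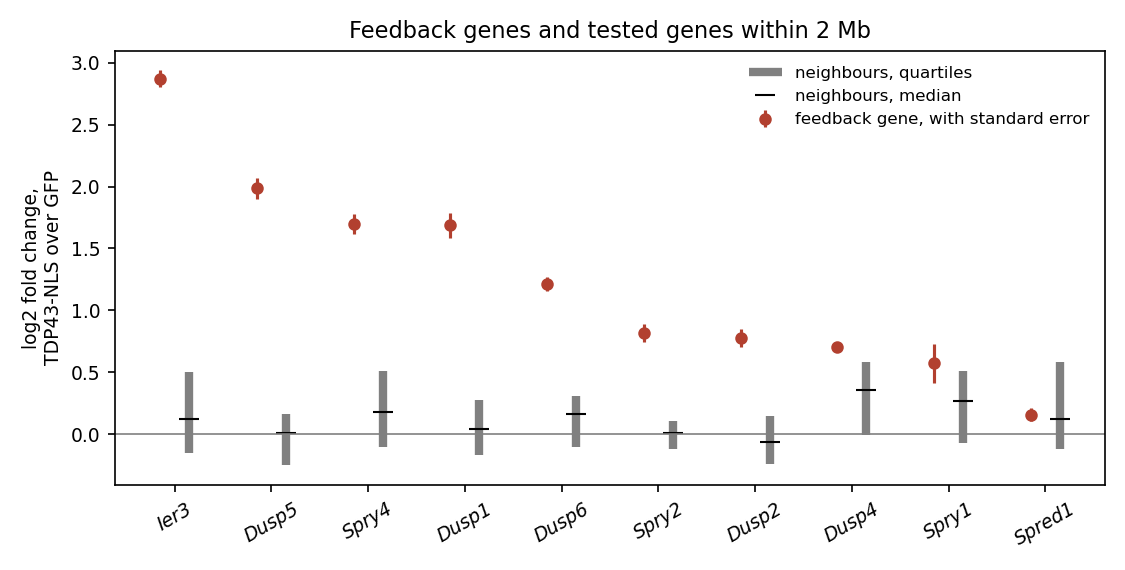
Log2 fold change, TDP43-NLS over GFP, of each feedback gene with its standard error (red) beside the median and quartiles of the tested genes within 2 Mb (black and grey). All neighbour medians lie between -0.06 and 0.36, and Spred1 (0.16) is the gene closest to its neighbours' median (0.12).

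The genes most alike were sought by the Pearson correlation of log2 CPM over the 6 libraries, among 8657 others (8658 for Spry1) whose mean reached 10 CPM. Only genes with an established symbol entered, not those named Gm, Rik or by an accession. Because the groups differ in most genes, a high correlation is common: 583 genes reached 0.99 with Dusp5, 572 with Dusp4, 523 with Dusp6, 451 with Spry4 and 432 with Ier3. Nearest to Dusp5 were Zc3h12a (r = 0.99999) and Xist (r = 0.9999), to Ier3 Rab44 and Riok3 (both r = 0.9998), and to Dusp6 Pou2f2 and Tnfaip2 (r = 0.99979 and 0.99975). Dusp4 was most like Xdh (r = 0.9999) and Col4a5 (r = 0.9998), and Spry4 most like Mfsd6 and Prkd3 (r = 0.99975 and 0.99951). For Dusp1 they were Cyp4v3 and Nod1 (r = 0.9997 and 0.9993), for Spry2 Itsn2 and Fosl2 (r = 0.9998 and 0.9993), and for Dusp2 Tep1 and Dhrs7 (r = 0.9994 and 0.9986). Spry1 and Spred1 had less close matches: Dhps and Stk4 (r = 0.9885 and 0.9874) and Eif4e3 and Rab6a (r = 0.99084 and 0.98996). These values describe 6 libraries that share 2 groups.

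In the deposited annotation the 10 genes share terms that follow their families. All 5 phosphatases carry the term for MAP kinase tyrosine, serine and threonine phosphatase activity, and 7 genes carry negative regulation of the ERK1 and ERK2 cascade: Dusp1, Dusp4, Dusp6, Spry1, Spry2, Spry4 and Spred1. Those without it, Dusp2, Dusp5 and Ier3, rose by 0.78, 1.99 and 2.87 on the log2 scale. The Sprouty domain is listed for all 4 Sprouty and Spred genes.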

How the data were processed

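RNA-seq of 6 BV2 libraries was used as deposited: whole-number read counts per gene for 55359 genes, and FPKM values with annotation for the 25032 genes with a read. FPKM recomputed by this work from the deposited counts, column totals and gene lengths differed from the authors' FPKM by a relative 4.4e-16 at most, so the FPKM are a rescaling of the counts. Per the submitters' processing notes, the tools were Bowtie2 2.2.3, HISAT2 2.1.0 and HTSeq 0.6.0, with the build GRCm39. Their roles, the strand setting and the treatment of multi-mapped reads are not given in the sources used here. Per the labels' protocols, library preparation used the NEBNext Ultra RNA kit. Positions are on GRCm39, and promoter windows are RefSeq's on GRCm38.p6. No coordinates were converted.

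Groups and replicate numbers come from the labels. Counts were tested with edgeR 4.0.16 in R 4.3.3: filterByExpr (10 reads, 15 in total) kept 13199 genes, TMM set the scaling, and a two-sided quasi-likelihood test with group as the only term was adjusted over all tested genes (Benjamini-Hochberg, 0.05). "Rose" and "fell" mean calls of that test. glmTreat tested against log2 fold changes of 0.5 and 1. CPM are TMM-scaled, and a standard error is the log2 fold change divided by the square root of F. The code was tested on simulated data. Alternatives were DESeq2 1.42.0, limma 3.58.1 on log2(FPKM + 1) or log2(FPKM + 0.1), other scalings, no filter, a replicate block and leaving out each library. The members and gene lists were chosen with earlier results of these data known. Named genes are the 10 members, Tardbp, up to 4 called genes with the smallest adjusted p per list, and the 2 genes most alike to each member. Others are said to have been chosen after their values were seen.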

Additional observations from a re-analysis of the deposited data

How the results depend on the processing

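All 10 feedback genes kept a positive fold change in all 14 alternatives run for each, and 8 of them (Ier3, the 5 DUSPs, Spry2 and Spry4) kept their call in every alternative. Spred1 lost its call with limma on log2(FPKM + 1) (0.11, adjusted p = 0.119), on log2(FPKM + 0.1) (0.12, adjusted p = 0.120) and without the filter on low values (0.11, adjusted p = 0.188). It also lost it without TDP43-NLS replicate 2, TDP43-NLS replicate 3 or GFP replicate 3, and kept it without each of the other libraries. Over all single omissions its log2 fold change ran from 0.12 to 0.22. Spry1 lost its call with limma on log2(FPKM + 1) without the filter on low values (0.28, adjusted p = 0.0700). The cause was not tested. Of the 8 genes past a log2 fold change of 0.5, 5 passed 1. The count of other phosphatases that rose, 5 in edgeR, was 3 with limma on log2(FPKM + 1) and 3 on log2(FPKM + 0.1), whose filter on low values leaves fewer genes. In shares of summed CPM instead of FPKM, the differences (TDP43-NLS minus GFP, in percentage points) were -9.14 for Dusp4 (-8.6 in FPKM), 3.07 for Dusp5 (3.46) and 2.57 for Spry2 (5.33), and -9.8 for Spred1, with the same sign as in FPKM. With the replicate number as a block, 10 feedback genes rose, as without it, and 3856 of all tested genes rose and 3692 fell. The numbers do not pair the libraries: deviations of same-numbered libraries correlated at -0.04, -0.02 and 0.02. Spry1, with 143 reads over the libraries labelled GFP, is the gene most limited by depth.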

Other observations

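Families next to the feedback genes moved in opposite directions between their members, and the following were chosen after their values were seen. Of the RSK kinases, Rps6ka2 rose by 2.48 and Rps6ka1 by 0.25 on the log2 scale, while Rps6ka3 fell by 0.21. Of the Gadd45 genes, Gadd45a rose 2.82-fold (3.73 ± 0.278 CPM in the libraries labelled TDP43-NLS and 1.30 ± 0.459 CPM in those labelled GFP), Gadd45g fell by 1.77, and Gadd45b had 36.2 ± 0.270 CPM labelled TDP43-NLS and 34.1 ± 3.99 CPM labelled GFP (SD, n = 3 each, edgeR adjusted p = 0.377). Of the Gab adaptors, Gab2 rose by 0.52 and Gab1 fell by 1.24. The differences between members of a family were not tested.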
